A study of Mus musculus with 24 samples.

Results

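The 9 genes described here encode costimulatory receptors and members of the TNF receptor and TNF ligand superfamilies: Icos, Cd27, Cd70, Tnfrsf4, Tnfrsf9, Tnfrsf18, Tnfsf8, Tnfsf11 and Tnfsf14. They were taken by symbol from a count table of 24421 genes, and all 9 were present and passed the low-count filter in each fit. RNA was sequenced from CD8 and CD4 T cells that had been sorted by flow cytometry out of the marrow of female CByB6F1 mice with immune bone marrow failure (BMF), a mouse model of aplastic anaemia, the loss of marrow to T cell attack. The mice were 2 to 5 months old, and all groups, the untreated controls included, carried the disease. They were untreated, or received cyclosporine (CSA, an inhibitor of calcineurin), ruxolitinib (RUX, an inhibitor of the JAK1 and JAK2 kinases, at a dose the series calls low) or RUX+CSA. Each of the 24 libraries came from cells of 2 or 3 mice of a group pooled to gain enough RNA, with 3 pools in each of the 8 groups. Libraries are named by group and pool number, and p-values measure the spread between pools.

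Costimulatory receptors give a T cell the second signal that it needs beside its antigen receptor. Icos belongs to the CD28 family and binds ICOS ligand on B cells and other presenting cells. Cd27, Tnfrsf4 (OX40), Tnfrsf9 (4-1BB) and Tnfrsf18 (GITR) are TNF receptor superfamily members that recruit TRAF adaptors and signal to NF-kappa-B, which favours survival and division. Their ligands include Cd70, which binds Cd27. Tnfsf8 (CD30 ligand), Tnfsf11 (RANKL) and Tnfsf14 (LIGHT) are TNF ligands that activated T cells can display. Tnfrsf4, Tnfrsf9 and Tnfrsf18 are induced by antigen and are also high on regulatory T cells, whereas Cd27 is already present on naive cells. RANKL drives the formation of osteoclasts, and LIGHT binds HVEM (Tnfrsf14) and the lymphotoxin beta receptor (Ltbr).

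Several members lie close together in the genome (mm10). Tnfrsf4 (chromosome 4, 156013695 to 156016589) and Tnfrsf18 (chromosome 4, 156026342 to 156028891) are on the same strand, 9753 bases apart. Tnfrsf9 is on the same chromosome (150920155 to 150946102), as is Tnfsf8 (63832824 to 63861284). Cd70 (chromosome 17, 57145997 to 57149777) is the gene next to Tnfsf14 (57189474 to 57194181), with a gap of 39697 bases. Icos (chromosome 1, 60977914 to 61000321), Cd27 (chromosome 6, 125232622 to 125237027) and Tnfsf11 (chromosome 14, 78277446 to 78308043) stand apart from the others. Cd27 shares exon bases with the microRNA gene Mir8113, so read pairs there cannot be given to either.

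The promoter windows of Tnfrsf9, Tnfrsf4 and Tnfrsf18 are shown because Tnfrsf9 was the member that differed under treatment in CD4 cells, and the other pair are neighbours with high levels in CD4 cells. The windows are RefSeq's, on build GRCm38.p6, 300 bases long with 250 before the transcript start and 50 after, and are printed on the strand of the gene, which is the plus strand for these 3 genes. Capitals mark matches, on either strand, to GGAAA (the core bound by NFAT, the factor that calcineurin activates), TTCNNNGAA (bound by STAT factors downstream of JAK kinases) and TGANTCA (bound by AP-1). The coordinates are chr4:150919905-150920204 and chr4:150927749-150928048 for the 2 windows of Tnfrsf9, chr4:156013445-156013744 for Tnfrsf4 and chr4:156026072-156026371 for Tnfrsf18.
Tnfrsf9 window 1: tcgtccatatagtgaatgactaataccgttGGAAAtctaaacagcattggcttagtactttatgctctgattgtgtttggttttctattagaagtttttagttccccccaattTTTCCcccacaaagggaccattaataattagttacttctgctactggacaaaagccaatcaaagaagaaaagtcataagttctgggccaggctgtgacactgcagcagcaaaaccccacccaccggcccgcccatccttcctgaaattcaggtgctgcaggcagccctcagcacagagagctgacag
Tnfrsf9 window 2: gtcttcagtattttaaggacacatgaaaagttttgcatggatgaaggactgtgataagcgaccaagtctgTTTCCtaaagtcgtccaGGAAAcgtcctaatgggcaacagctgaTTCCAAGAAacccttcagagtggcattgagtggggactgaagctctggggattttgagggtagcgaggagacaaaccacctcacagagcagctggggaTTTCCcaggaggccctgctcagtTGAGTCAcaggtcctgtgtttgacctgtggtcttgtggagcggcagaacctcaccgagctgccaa
Tnfrsf4: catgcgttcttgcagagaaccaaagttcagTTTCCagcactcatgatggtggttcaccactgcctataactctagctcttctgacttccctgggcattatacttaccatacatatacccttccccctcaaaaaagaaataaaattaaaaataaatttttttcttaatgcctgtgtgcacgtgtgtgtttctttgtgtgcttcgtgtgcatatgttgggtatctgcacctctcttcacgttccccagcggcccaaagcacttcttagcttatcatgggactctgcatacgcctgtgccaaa
Tnfrsf18: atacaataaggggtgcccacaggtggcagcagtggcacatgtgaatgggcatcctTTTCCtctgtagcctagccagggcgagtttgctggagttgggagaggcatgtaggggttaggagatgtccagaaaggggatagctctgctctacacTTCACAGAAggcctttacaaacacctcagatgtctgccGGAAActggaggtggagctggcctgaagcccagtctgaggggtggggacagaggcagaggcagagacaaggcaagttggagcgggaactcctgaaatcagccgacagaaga

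Windows were found for 7 of the 9 members, 8 windows in all. Every one of the 8 held GGAAA, which 61.3% of 32851 mouse windows of this length held. The second Tnfrsf9 window had 3 copies of GGAAA, 1 TTCNNNGAA and 1 TGANTCA, while its first window had 2 copies of GGAAA alone. Tnfrsf18 had 2 copies of GGAAA and 1 TTCNNNGAA, and Tnfrsf4 a single GGAAA. Tnfsf14 had the most copies of GGAAA, 4, with 1 TGANTCA. TTCNNNGAA was present in 8.3% of all windows and TGANTCA in 7.81%. No 2 of these motifs overlapped in the windows shown. These matches describe letters and not bound sites.

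Depth ran from 16.9 to 34.6 M (mega) read pairs per library. The sort labels held in every library: Cd4 in CD8 libraries was at most 0.0827% of its median in CD4 libraries. In CD4 libraries Cd8a was at most 0.735% and Cd8b1 at most 1.56% of their medians in CD8 libraries. These genes do not measure other cells. Neutrophil markers summed to 12.6 to 5872 CPM in CD8 and 94.1 to 16955 CPM in CD4 libraries. 2 CD8 libraries, the ones labelled CSA 6 and RUX 7, stood apart from the other pools of their label in several of these genes. Counts of members past the threshold that involve CD8 cells are therefore given with and without them, while levels, correlations and the pathway lists use all libraries, and the choice to leave them out was made with earlier results of these data known. Levels are given in CPM (read pairs per mega read pairs of the library, after scaling), which suits one gene across libraries. TPM, which also divides by transcript length, is used for one gene against another.

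The clearest contrast among the 9 genes was between the cell types. In untreated mice all 9 members differed between CD8 and CD4 cells at an adjusted p under 0.05 (edgeR, 3 pools each), 7 being lower and 2 higher in CD8 cells, against a background of 17.2% of 13476 genes (10% lower and 7.2% higher). The median log2 difference, CD8 over CD4, was -1.60 over the members and 0.01 over all genes. Tnfsf11, Cd70 and Tnfrsf4 were the most skewed towards CD4 cells, and Tnfrsf9 and Cd27 were the 2 higher in CD8 cells. The same 8 members passed in CSA, RUX and RUX+CSA mice, with the same directions, where 26.3%, 17.9% and 27.8% of genes passed. Tnfsf14 was the member that missed in those 3. Without CSA 6 and RUX 7, all 9 members passed under no treatment, RUX and RUX+CSA, where 20%, 15.7% and 30.1% of genes did, and 8 passed under CSA, where 23.1% did.

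**Figure D1:**
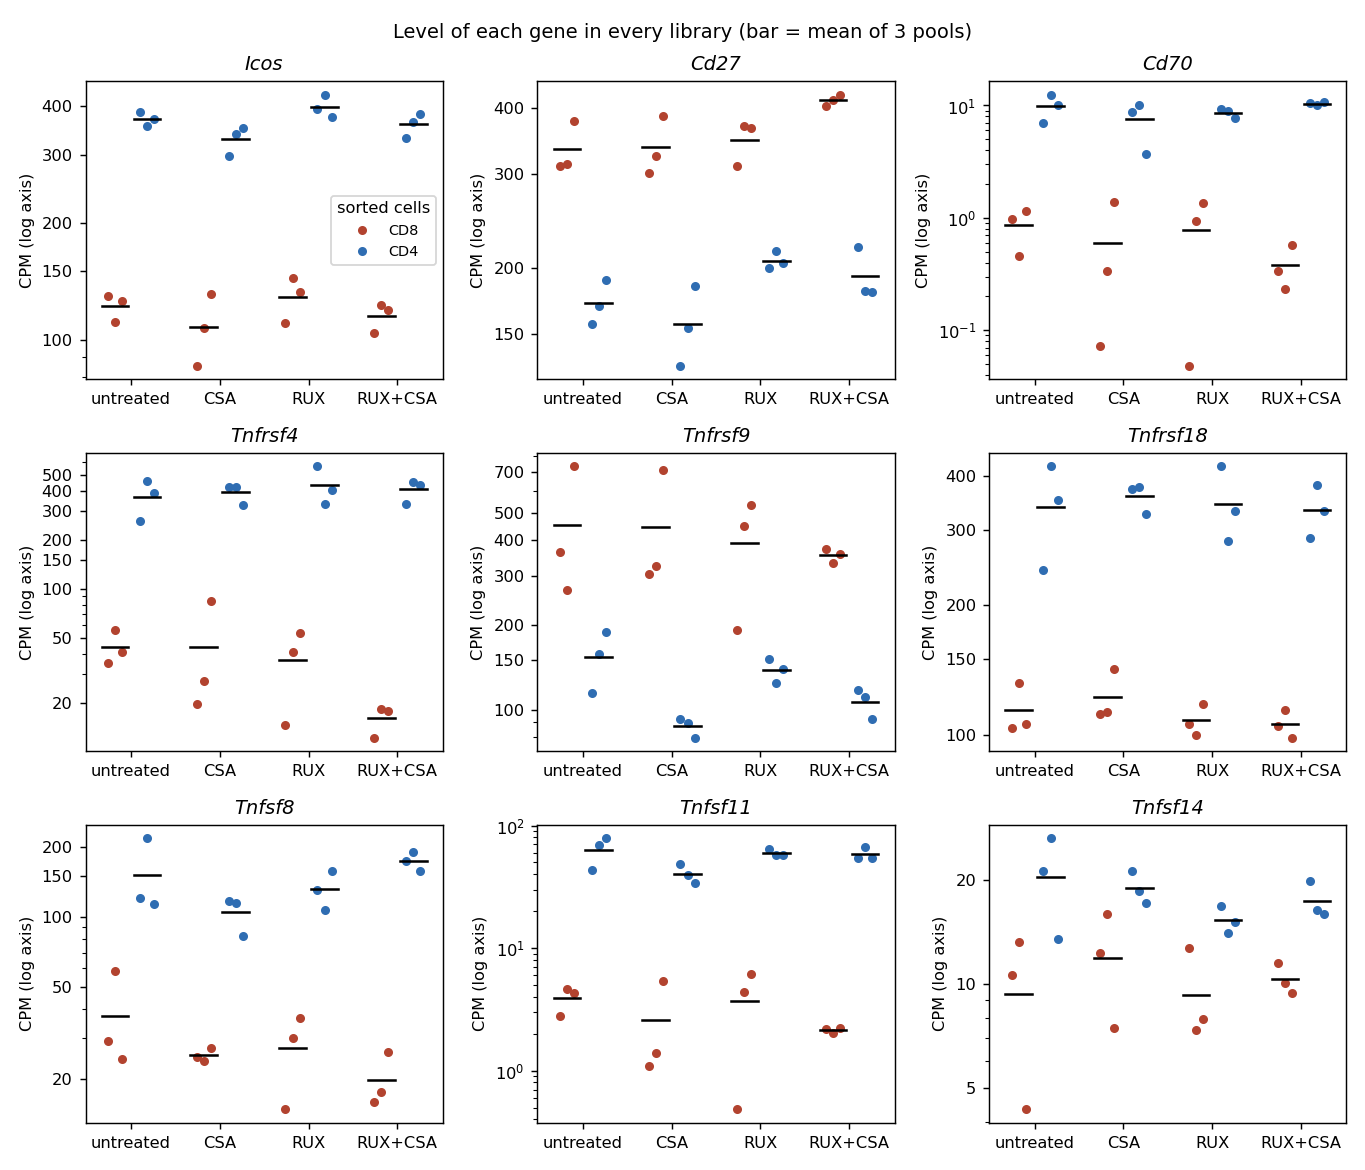
Level of each of the 9 genes in every library, in CPM on a log axis, with CD8 libraries in red, CD4 libraries in blue and a bar at the mean of 3 pools for each treatment on the x axis. For every gene except Tnfsf14 the 12 CD8 points and the 12 CD4 points did not overlap, with Cd27 and Tnfrsf9 higher in CD8 cells and the other 6 higher in CD4 cells.

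Over all treatments, 8 of the 9 members had no overlap between the 12 CD8 and the 12 CD4 libraries, which was the case for 5.94% of all genes (2.31% with CD8 higher and 3.64% with CD8 lower). Among the receptors, Icos ran from 85.6 to 144 CPM in CD8 libraries (median 121) and from 297 to 429 in CD4 libraries (median 369). The ratio of those medians, CD4 to CD8, was 3.05, and in untreated mice the log2 difference, CD8 over CD4, was -1.60 (SE 0.13, adjusted p = 2.52e-08). Tnfrsf18 had nearly the same ratio, 3.13, with 98.6 to 142 CPM in CD8 and 242 to 421 in CD4 libraries. Both genes thus had narrow ranges within a cell type, 1.44-fold to 1.74-fold from lowest to highest library.

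Tnfrsf4, whose product OX40 sustains activated T cells, was far more skewed than its neighbour Tnfrsf18. It ran from 12.2 to 84.5 CPM in CD8 libraries (median 31.1) and from 259.7 to 564 in CD4 libraries (median 414), a ratio of medians of 13.3. The untreated pools were at 35.2, 56 and 40.9 CPM in CD8 cells and at 259.7, 456 and 389 in CD4 cells (log2 -3.07, SE 0.49, adjusted p = 0.000341). All CD8 libraries lay below all CD4 libraries, although CD8 libraries themselves differed by up to 6.95-fold.

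Cd27 and Tnfrsf9 went the other way. Cd27 ran from 301 to 423 CPM in CD8 libraries and from 131 to 219 in CD4 libraries, a ratio of medians, CD8 to CD4, of 2.01 (untreated log2 0.95, SE 0.12, adjusted p = 1.24e-05). Tnfrsf9, the receptor 4-1BB, was at 363, 267 and 734 CPM in untreated CD8 pools and at 115, 158 and 189 in untreated CD4 pools (log2 1.56, SE 0.38, adjusted p = 0.00894). The pool CD8 untreated 3 was the high one, and without it the difference was 1.01 with an adjusted p of 0.076. In RUX mice the Tnfrsf9 difference (2.84-fold, adjusted p = 0.0112) missed the threshold without CD8 RUX 9 (adjusted p = 0.0561). In CSA mice it was 2.36 on the log2 scale (SE 0.39, adjusted p = 0.000374).

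The ligands were all lower in CD8 cells of untreated mice. Tnfsf11 was at 2.78, 4.65 and 4.26 CPM in CD8 pools and at 43, 69 and 78.8 in CD4 pools (log2 -4.04, SE 0.57, adjusted p = 9.04e-05). Its median ratio, CD4 to CD8, over all treatments was 22.5, the widest of the 9. Cd70 was at 0.967, 0.459 and 1.15 CPM in untreated CD8 pools and 7.03, 12.5 and 10 in CD4 pools (log2 -3.49, SE 0.71, adjusted p = 0.00174). The Cd70 values in CD8 cells rest on few read pairs, from 1 to 42 in a library, and 3 read pairs correspond to 0.0868 to 0.177 CPM. Every CD4 library had more, 82 to 344 read pairs of Cd70. Tnfsf11 had 10 to 164 read pairs in CD8 libraries.

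Tnfsf8 ran from 14.8 to 58.2 CPM in CD8 and from 82.7 to 218 in CD4 libraries, a ratio of medians of 4.9 (untreated log2 -2.02, SE 0.34, adjusted p = 0.000451). Tnfsf14 had the smallest ratio of medians over all treatments, CD4 to CD8, 1.64. Its untreated pools were at 10.6, 13.2 and 4.35 CPM in CD8 cells and 21.2, 26.4 and 13.5 in CD4 cells (log2 -1.12, SE 0.32, adjusted p = 0.0179). The adjusted p was 0.0922 without CD8 untreated 3 and 0.103 without CD4 untreated 14. Under the treatments its log2 difference was -0.68 to -0.75 (adjusted p = 0.0814 to 0.127), and its treatment effects did not pass in the test between cell types (unadjusted p = 0.33 to 0.416). Ranges over all treatments overlapped, at 4.35 to 15.9 CPM in CD8 and 13.5 to 26.4 in CD4 libraries.

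**Figure D2:**
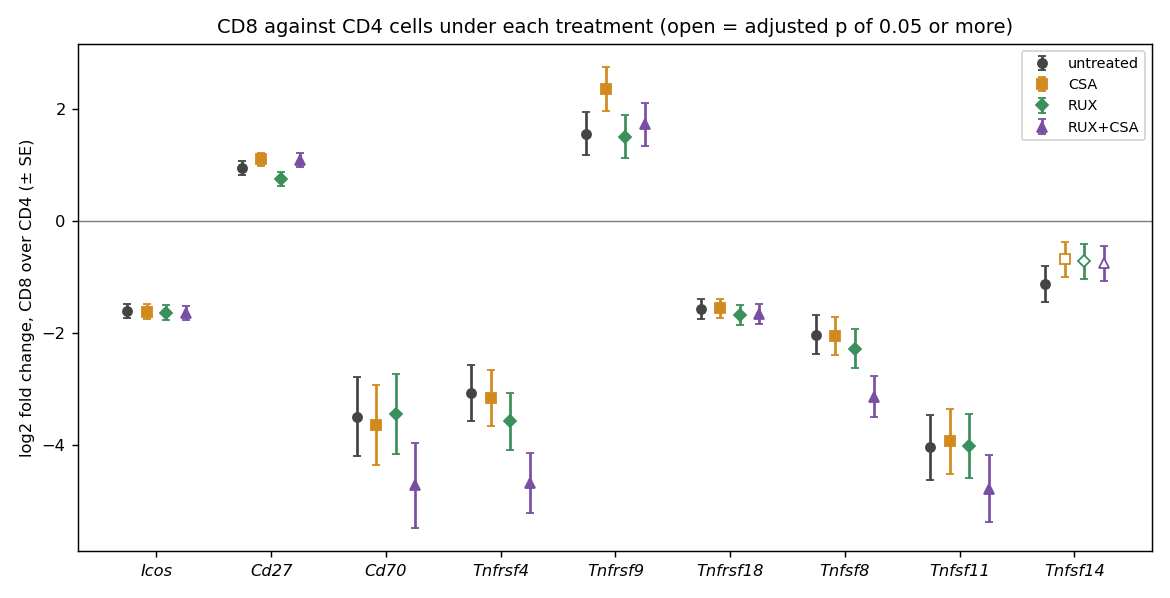
Log2 fold change of CD8 over CD4 cells for each of the 9 genes under each of the 4 treatments, with bars of 1 SE and open symbols where the adjusted p was 0.05 or more. Cd27 and Tnfrsf9 lie above 0 and the other 7 genes below it under every treatment, and the 3 open symbols are all Tnfsf14.

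The order of the 9 genes by level per length differed between the cell types. In CD8 cells Cd27 had the highest median (504 TPM), followed by Tnfrsf9 (335) and Tnfrsf18 (237). Cd27 was above Tnfrsf9 in 9 of 12 libraries and Tnfrsf9 above Tnfrsf18 in 10 of 12, and the ranges of both pairs overlapped. Icos (79.8 TPM) and Tnfrsf4 (59.2) came next, also with overlapping ranges, and Tnfrsf18 was above Icos in all 12 libraries with no overlap. Tnfsf8 (25.4), Tnfsf14 (11.5), Tnfsf11 (2.45) and Cd70 (1.38) were the 4 lowest, so that all the ligands lay below all the receptors.

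In CD4 cells Tnfrsf4 (786 TPM) and Tnfrsf18 (766) led, and each was above the other in 6 of 12 libraries. Cd27 (254) and Icos (253) followed, did not overlap with Tnfrsf18, and could not be ordered against each other, with Cd27 above in 7 of 12. Tnfsf8 (126 TPM) and Tnfrsf9 (116) formed the next pair, with Tnfsf8 higher in 9 of 12 libraries. Tnfsf11 (54.8), Cd70 (24.7) and Tnfsf14 (19.8) were lowest. Tnfrsf9 thus ranked 2 of 9 in CD8 and 6 of 9 in CD4 cells, and Tnfrsf4 ranked 5 and 1.

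**Figure D3:**
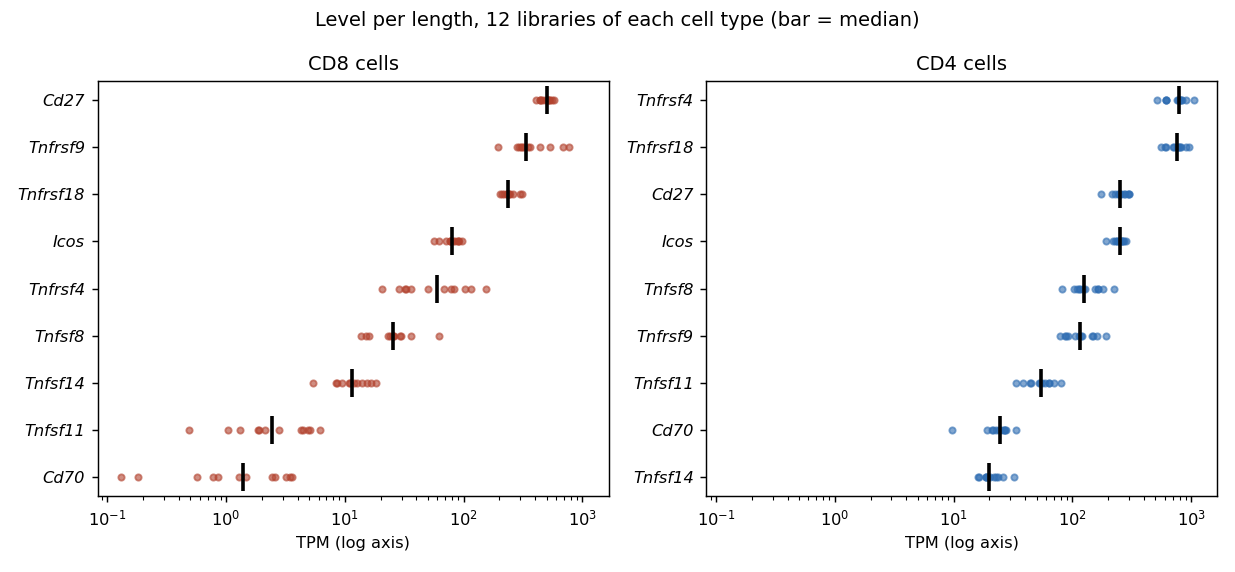
Level per length (TPM, log axis) of the 9 genes in the 12 CD8 libraries (left) and the 12 CD4 libraries (right), each point a library and each bar a median, ordered from the highest median at the top. The CD8 order opened with Cd27 and closed with Cd70, which spread from 0.13 to 3.59 TPM, while the CD4 order opened with Tnfrsf4 and closed with Tnfsf14.

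The binding partners of the members were measured in the same libraries. Of 9 listed partners 7 were tested. In untreated mice 1 was higher and 3 were lower in CD8 cells, as were 7.2% and 10% of all genes. Tnfsf4 (OX40 ligand) was higher, at 55.3 ± 37.8 against 13.4 ± 4.86 CPM (SD, n = 3 each; log2 2.06, SE 0.54, edgeR adjusted p = 0.0129). This is the direction opposite to that of its receptor Tnfrsf4. Icosl was lower in CD8 cells (log2 -2.02, adjusted p = 5.46e-07), as were Tnfsf9, the ligand of 4-1BB (log2 -0.97, adjusted p = 0.000627), and Ltbr (log2 -3.25, adjusted p = 0.00233). Of 12 macrophage markers 10 were lower and none higher in the same comparison. They summed to 85.7 to 207 CPM in CD8 and 385 to 1407 in CD4 pools. Their part in the Ltbr difference was not tested. Tnfsf18, the GITR ligand, had at most 2 read pairs in a CD8 and 6 in a CD4 library, and Tnfrsf11b, the decoy receptor of RANKL, at most 1 in any library. Tnfrsf11a, the receptor of RANKL, had at most 6 read pairs in a CD8 and 41 in a CD4 library.

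Other genes of the pathway also differed between the cell types of untreated mice, where 17.2% of all genes passed. Of all genes 10% were lower and 7.2% higher in CD8 cells. Of 9 tested TNF ligands outside the 9 members, Cd40lg (log2 -5.26), Lta (-2.71), Tnf (-1.55) and Ltb (-1.11) were lower in CD8 cells and the death ligand Fasl was higher (1.14). Of 14 other TNF receptors, 4 were lower and 1 higher, with Tnfrsf13b at -2.53 and Tnfrsf1a at 1.05. Of 17 tested CD28 family and other costimulatory or inhibitory receptors, 9 were lower and 5 higher, among them Ctla4 (-1.11) and Cd160 (2.99). Of 22 TRAF adaptors and NF-kappa-B signalling genes 7 were lower and none higher, the largest differences being those of Nfkbia (-1.26), Nfkb2 (-1.15) and Relb (-1.06). Median log2 differences over these 4 lists were -1.11, -0.31, -0.35 and -0.19, against 0.01 over all genes.

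Treatment changed 1 of the 9 genes in CD4 cells. Tnfrsf9 was at 115, 158 and 189 CPM in untreated pools, 92.7, 89.8 and 79.5 in CSA pools, 151, 124 and 139 in RUX pools and 117, 110.4 and 92.3 in RUX+CSA pools. All CSA pools were below all untreated and all RUX pools, and the RUX+CSA pools overlapped with both the CSA and the untreated pools. It fell with CSA against no treatment by 0.82 on the log2 scale (SE 0.15, edgeR adjusted p = 0.0188), 1 of 9 members where 1.48% of 13175 genes passed. In RUX against CSA it was higher by 0.66 (SE 0.15, adjusted p = 0.0357), again 1 of 9, with 2.52% of genes past the threshold. Over the 6 pools with CSA against the 6 without, the log2 difference was -0.60 (SE 0.11, adjusted p = 0.00575), again 1 of 9, with 7.16% of genes past the threshold.

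The call for CSA against no treatment was lost without CSA 18 (log2 -0.76, adjusted p = 0.1), and that for RUX against CSA was lost without any of its 6 libraries (adjusted p = 0.0565 to 0.164). The difference over all 12 pools passed with each of the 12 libraries left out. RUX+CSA against no treatment gave -0.53 for Tnfrsf9 (SE 0.15, adjusted p = 0.0887), and no member passed there, where 1.77% of genes did. 1 member had an unadjusted p under 0.05 in that comparison, as did 16.9% of all genes, and DESeq2 called it (adjusted p = 0.0295), as did edgeR without CD4 untreated 13 (-0.70, adjusted p = 0.0164). RUX alone left Tnfrsf9 at -0.16 (SE 0.15), and no gene in the table passed in that comparison. No member passed for RUX+CSA against CSA or against RUX, where 0.281% and 0.782% of genes did, and 3 and 1 members had an unadjusted p under 0.05, as did 9.98% and 14.3% of all genes.

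Genes of regulatory T cells, which carry Tnfrsf9, moved in the same CD4 libraries. Foxp3, the factor that defines these cells, was at 61.2, 57.5 and 96.2 CPM without treatment and 68.7, 71.1 and 67.8 with RUX, against 39.3, 32.6 and 35.8 with CSA and 39.8, 29.5 and 35.1 with RUX+CSA. All pools with CSA were below all pools without it (log2 -0.99, SE 0.12, adjusted p = 0.00041). Of 10 listed regulatory T genes 5 were lower and none higher over the pools with CSA, where 7.16% of all genes passed. Their summed level was 947 to 1046 CPM in CSA and 1055 to 1313 in RUX+CSA pools, against 1001 to 1348 in untreated and 1139 to 1377 in RUX pools, so that the RUX+CSA pools lay within the untreated range. Icos, Tnfrsf4 and Tnfrsf18, which regulatory T cells also carry, had differences over the pools with CSA of -0.16, -0.00 and 0.02. Fewer cells of a type and less RNA per cell cannot be told apart in sorted bulk samples, and the part of regulatory T cells in the Tnfrsf9 result was not tested. Erythroid markers were higher in the CSA pools too, at 131 to 174 CPM summed over 10 genes against 2.18 to 30.1 in untreated pools, with Hba-a1, Hbb-bs and Hbb-bt at 0 in both. Among all genes 1.48% passed for CSA against no treatment and 2.52% for RUX against CSA. Of 6 tested follicular helper T genes 2 were lower in CSA than in untreated pools and 3 higher in RUX than in CSA pools, with sums of 982 to 1312 CPM in untreated, 706 to 1081 in CSA and 1282 to 1502 in RUX pools. Of 6 tested dendritic cell genes 2 were higher in CSA than in untreated pools and 3 lower in RUX than in CSA pools, with sums of 29.3 to 34.1, 43.1 to 85.4 and 23.6 to 27.8 CPM in that order. Of 12 macrophage genes 2 were lower and none higher over the pools with CSA, where 7.16% of all genes passed (median log2 -1.04). Their sums overlapped, at 385 to 1407 CPM in untreated and 491 to 2312 CPM in CSA pools. The part of these cells was not tested one type at a time. A covariate of other-cell markers was the mean over neutrophil, erythroid, B cell and macrophage genes. It holds no regulatory T, follicular helper T or dendritic cell gene, so it cannot account for those cells. With it Tnfrsf9 was lower by 0.97 (adjusted p = 0.0166) for CSA against no treatment.

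Tnfsf11 was another member whose CSA pools stood low in CD4 cells. It was at 48.2, 39.2 and 33.9 CPM with CSA, against 43, 69 and 78.8 without treatment, 64.8, 57.9 and 57.6 with RUX and 54.2, 67 and 54.8 with RUX+CSA. The CSA pools were below all RUX and RUX+CSA pools and overlapped with the untreated pools because of CD4 untreated 13. The log2 difference from no treatment was -0.65 (SE 0.19), which did not pass in edgeR (adjusted p = 0.12) and passed in DESeq2 (adjusted p = 0.0379). Tnfsf8 gave -0.52 (SE 0.25, adjusted p = 0.326) in the same comparison.

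The remaining members showed no difference past the threshold in CD4 cells. Icos was lowest with CSA, at 297, 339.9 and 351 CPM, all below the untreated pools at 387, 356 and 372 (log2 -0.17, SE 0.09, adjusted p = 0.377). Cd27 was at 157, 169.9 and 189.5 CPM in untreated and 200.1, 215 and 204 in RUX pools, which did not overlap (log2 0.26, SE 0.12). Tnfrsf4 and Tnfrsf18 were within 0.24 of no treatment under all 3 treatments, with SE of 0.24 and 0.19. Cd70 ran from 3.73 CPM in CSA 18 to 12.5 in untreated 14, and Tnfsf14 from 13.5 to 26.4, and neither passed in any comparison. Over both RUX and RUX+CSA pools against the others, no member passed, where 0.25% of genes did, and Cd27 had the smallest p (log2 0.28, unadjusted p = 0.00587, adjusted p = 0.279).

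**Figure D4:**
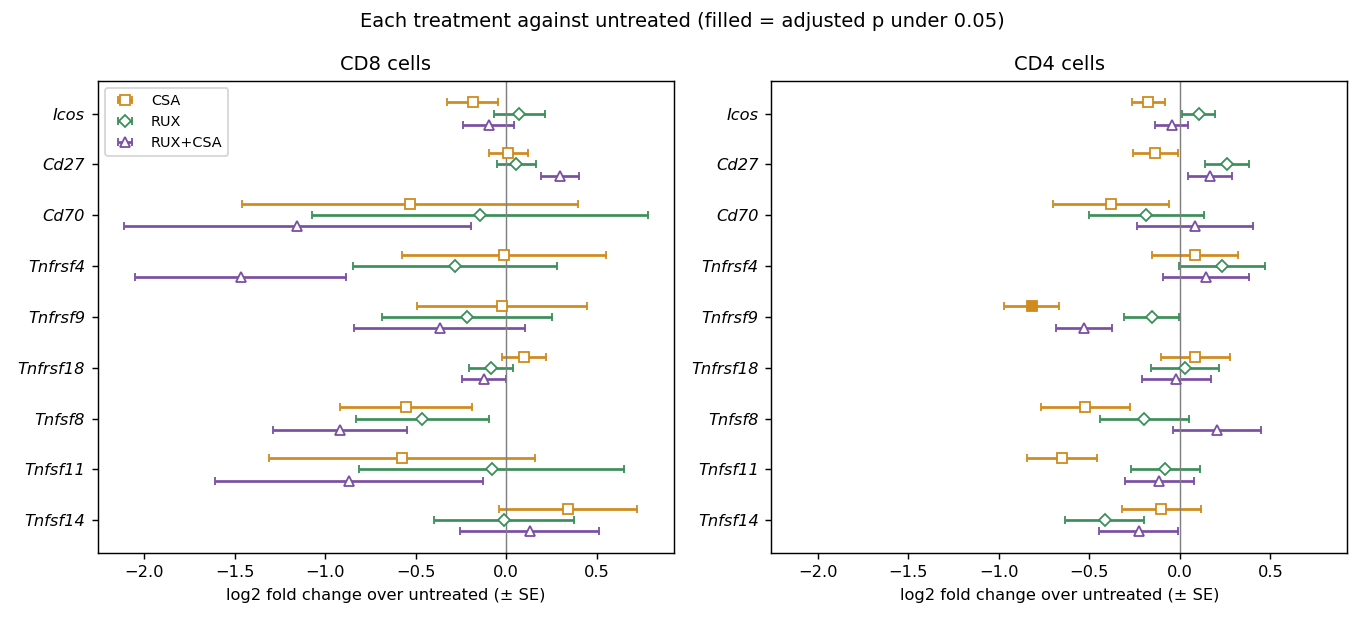
Log2 fold change of each treatment over no treatment for the 9 genes in CD8 cells (left) and CD4 cells (right), with bars of 1 SE and filled symbols where the adjusted p was under 0.05. The single filled symbol is Tnfrsf9 with CSA in CD4 cells, and the bars of Cd70, Tnfrsf4, Tnfrsf9 and Tnfsf11 are wider in CD8 than in CD4 cells.

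In CD8 cells no member passed in any of the 8 treatment comparisons with all libraries in the edgeR fit. RUX+CSA against no treatment was the comparison with the most changed genes, 15.7% of 12684, and 3 of 9 members had an unadjusted p under 0.05, as did 33.7% of all genes. Cd27 was at 311, 313 and 377 CPM in untreated and 402, 413 and 423 in RUX+CSA pools, all above the untreated ones (log2 0.30, SE 0.11, adjusted p = 0.0761). Tnfrsf4 was at 35.2, 56 and 40.9 CPM in untreated and 12.2, 18.2 and 17.7 in RUX+CSA pools, all below the untreated ones (log2 -1.47, SE 0.58, adjusted p = 0.111). Tnfsf8 was at 29.1, 58.2 and 24.4 against 15.9, 17.5 and 26.2 CPM, which overlapped (log2 -0.92, SE 0.37, adjusted p = 0.111). DESeq2 called Cd27 (adjusted p = 0.0316) and Tnfsf8 (0.0397), and limma voom called none. Tnfsf11, at 2.2, 2.01 and 2.21 CPM, was also below all untreated pools (log2 -0.87, SE 0.74, adjusted p = 0.433). RUX+CSA against CSA (0.0788% of genes past the threshold), against RUX (0%), RUX against CSA (0%), and the pools with CSA (2.36%) or RUX (0.56%) against those without gave no member either, with an unadjusted p under 0.05 for 2, 1, 0, 0 and 1 members and for 12.6%, 17.3%, 1.81%, 24% and 15.7% of all genes. CSA alone and RUX alone each gave no gene past the threshold in the whole table, and no member had an unadjusted p under 0.05 there, where 9.72% and 5.87% of all genes did.

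**Figure D5:**
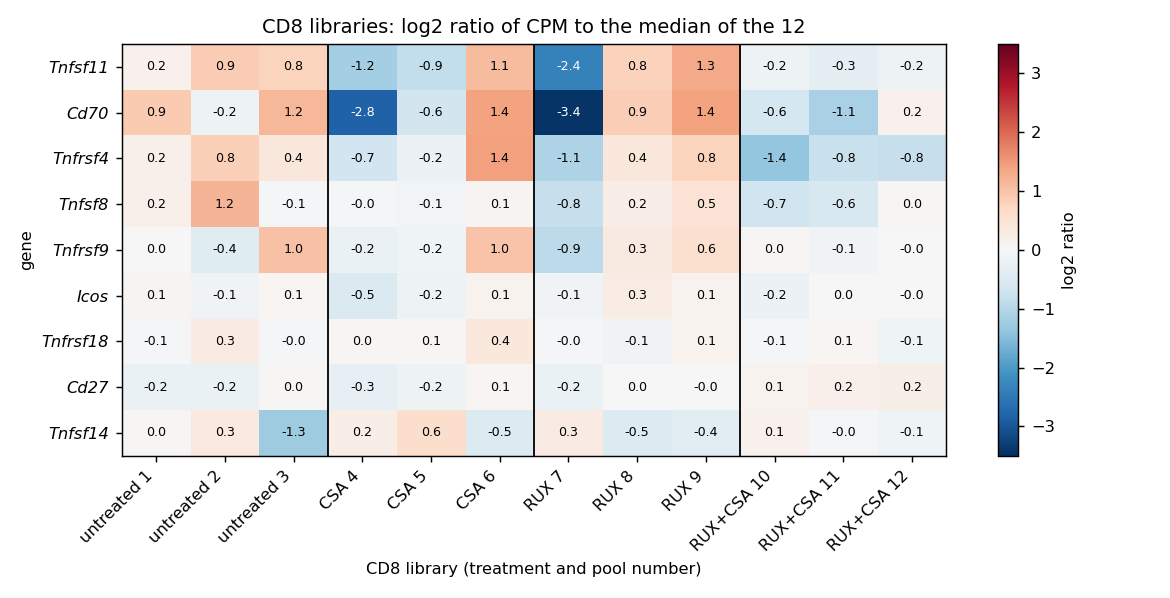
Log2 ratio of each of the 9 genes to its median over the 12 CD8 libraries, with genes as rows, libraries as columns ordered by treatment and pool number, red above and blue below the median. CSA 6 is red for Tnfsf11, Cd70, Tnfrsf4 and Tnfrsf9 where CSA 4 and CSA 5 are blue, and RUX 7 is blue where RUX 8 and RUX 9 are red, with Tnfsf14 the other way round.

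Within the CD8 CSA and RUX groups, 1 library each lay away from its pair of label mates. Tnfrsf4 was at 19.7 and 27 CPM in CSA 4 and CSA 5 and at 84.5 in CSA 6, and at 14.6 CPM in RUX 7 against 40.9 and 53.5 in RUX 8 and RUX 9. Tnfsf11 was at 1.09, 1.38 and 5.36 CPM in the CSA pools and 0.483, 4.38 and 6.2 in the RUX pools. Tnfrsf9 was at 304, 324 and 714 CPM in the CSA and 192, 449 and 536 in the RUX pools. For these 3 genes and for Cd70, the library labelled CSA 6 was nearer to RUX 8 and RUX 9, and the library labelled RUX 7 nearer to CSA 4 and CSA 5. Cd70 was at 0.0724, 0.334 and 1.37 CPM in CSA and 0.0483, 0.934 and 1.36 in RUX pools, with the lowest values resting on 2 read pairs in CSA 4 and 1 in RUX 7. Tnfsf14 ran the other way, at 12.3, 15.9 and 7.48 CPM in CSA and 12.7, 7.38 and 7.92 in RUX pools. Icos, Cd27 and Tnfrsf18 varied at most 1.69-fold over all 12 CD8 libraries.

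The same comparisons were made without CSA 6 and RUX 7, which leaves 2 pools in each of those groups. The 2 libraries were picked for standing apart, in these genes among others, so what follows describes the remaining pools, and the counts are no test of CSA or RUX. For RUX+CSA against no treatment, whose groups lose no library but whose spread is estimated without those 2, 3 members had an adjusted p under 0.05, where 30.4% of 12799 genes did. The log2 values were -1.47 for Tnfrsf4, -0.86 for Tnfsf11 and 0.30 for Cd27, close to those with all libraries.

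For CSA against no treatment the count was 1, Tnfsf11 (log2 -1.66, and -0.57 with all libraries), where 4.81% of genes were past the threshold. For the pools with CSA against those without it was 4, where 21.9% of genes were past it, with log2 values of -0.30 for Icos, -1.83 for Cd70, -1.24 for Tnfrsf4 and -1.48 for Tnfsf11, against -0.18, -0.77, -0.60 and -0.68 with all libraries. RUX+CSA against RUX gave 2, Tnfrsf4 and Tnfsf11 (-1.56 and -1.30, against -1.19 and -0.79), where 11.6% of genes were past it. RUX against CSA gave 2, Icos and Tnfsf11 (0.51 and 2.09, against 0.26 and 0.49), where 3.57% were past it. RUX against no treatment, RUX+CSA against CSA and the pools with RUX against those without gave 0, where 0, 0.859% and 1.91% of genes were past it. Tnfrsf9, the member that fell with CSA in CD4 cells, passed in none of the CD8 comparisons with or without the 2 libraries, and its CD8 difference for CSA with all libraries was -0.02 (SE 0.47).

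Some other markers moved with these CD8 values. The summed level of the 10 regulatory T genes was 312 to 423 CPM in CSA 4, CSA 5, RUX 7 and the RUX+CSA pools and 639.7 to 798 in the other 6 CD8 libraries, the same split as that of Tnfrsf4 and Tnfsf11. The summed level of follicular helper T genes was split in the same way, at 659 to 1092 against 1129 to 1779 CPM. For RUX+CSA against no treatment, where 15.7% of all genes passed, none of 9 tested regulatory T genes did (median log2 change -0.64). In that comparison 2 of 6 tested follicular helper T genes were higher and none lower. Their median log2 change was -0.25. Summed levels of NK cell genes (493 to 609 against 301 to 355 CPM), dendritic cell genes (242 to 347 against 44.5 to 70.4), B cell genes (23.4 to 74.6 against 5.55 to 14.4) and erythroid genes (27.9 to 139.9 against 1.15 to 17.6) were higher where Tnfrsf4 and Tnfsf11 were low. Summed levels of neutrophil genes overlapped between these sets of libraries, at 855 to 5872 against 12.6 to 3442 CPM. Macrophage genes (145 to 819 against 85.7 to 447 CPM) and basophil and mast cell genes (2.13 to 78.6 against 0.0806 to 36.8) did too. For RUX+CSA against no treatment, of 5 tested dendritic cell genes 1 was higher and 1 lower, with a median log2 change of -0.25. The NK, B cell and erythroid lists had 1 of 6, 5 of 7 and 4 of 6 tested genes higher there and none lower. Of these markers, Klra8 and Klra4 (NK), Cd209a and Siglech (dendritic) and Ms4a1, Pax5 and Fcrla (B cell) were at 0 in untreated CD8 pools. The erythroid genes Hba-a1, Hba-a2, Hbb-bs and Hbb-bt were at 0 in every CD8 group. Foxp3 itself was low in all CD8 libraries, at 1.81 to 5.29 CPM, and did not follow that split. Neutrophil markers summed to 4357 to 5872 CPM in RUX+CSA and 12.6 to 1467 in untreated CD8 pools, and B cell markers to 28 to 74.6 against 5.55 to 12.9. The mean of the other-cell markers covers neutrophil, erythroid, B cell and macrophage genes alone. Adding it to the fit of RUX+CSA against no treatment moved most members, and none passed (adjusted p = 0.503 to 0.948). Tnfsf8 went from -0.92 to 0.54, Tnfrsf9 from -0.37 to -1.84, Tnfsf14 from 0.13 to 1.88, Cd70 from -1.15 to -2.71, Cd27 from 0.30 to 0.05 and Tnfrsf4 from -1.47 to -1.15 on the log2 scale. The part of each cell type was not tested.

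Whether the treatments acted differently in the 2 cell types was tested directly. No member differed for RUX+CSA, where 0.0223% of 13476 genes did, and 2 had an unadjusted p under 0.05, as did 14.1% of genes: Tnfrsf4 (CD8 minus CD4 effect -1.60, SE 0.66, adjusted p = 0.296) and Tnfsf8 (-1.10, SE 0.47, adjusted p = 0.309). Without CSA 6 and RUX 7 the log2 value of Tnfrsf4 was again -1.60 and the count was 1, where 0.828% of genes were past the threshold. For CSA alone and for RUX alone no gene passed, and the Tnfrsf9 effect of CSA differed by 0.80 (SE 0.53, unadjusted p = 0.152). The fall of Tnfrsf9 with CSA in CD4 cells is therefore not shown to be absent from CD8 cells.

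The wider pathway was followed in the same comparisons. In CD8 cells with RUX+CSA, where 15.7% of all genes passed, 4 of 8 tested TNF ligands outside the 9 members fell and none rose: the death ligands Tnfsf10 (log2 -1.22) and Fasl (-0.59), Tnfsf12 (-2.46) and Ltb (-0.66). Of 17 costimulatory or inhibitory receptors 3 passed, Btla (0.82) and Cd5 (0.55) higher and Slamf1 (-1.18) lower. Of 22 TRAF and NF-kappa-B genes 4 passed, Birc2 (-0.45), Relb (-0.41) and Nfkbie (-0.37) lower and Ripk1 (0.31) higher. Both shares are near that of all genes, and none of 14 other TNF receptors passed. Of 6 partners of the members Ltbr rose (log2 2.34, adjusted p = 0.0281), at 0.172 to 0.444 CPM in untreated and 0.89 to 2.27 in RUX+CSA pools. Ltbr is a gene of myeloid and stromal cells. The macrophage markers summed to 633 to 819 CPM in RUX+CSA and 85.7 to 207 in untreated pools, although of the 12 genes 2 were higher and 3 lower and their median log2 change was -0.60. Their part in the Ltbr result was not tested. Median log2 changes over the ligand, receptor, costimulatory and TRAF lists were -0.99, 0.28, -0.23 and -0.16, against -0.02 over all genes.

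In CD4 cells over the pools with CSA, where 7.16% of all genes passed, Tnfrsf25 (0.58), Cd28 (0.32), Cd5 (0.34) and Cd6 (0.36) rose, and Cd86 (-0.56) and Tnfrsf1b (-0.35) fell. Icosl, the partner of Icos, also rose (log2 0.38, adjusted p = 0.0471). Its mean was 42.9 ± 8.93 CPM without treatment and 35.1 ± 6.47 with RUX, against 54.6 ± 1.28 with CSA and 46.7 ± 2.27 with RUX+CSA (SD, n = 3 each). These 7 genes are all those that passed there among the 5 pathway lists, with no TRAF gene and no other TNF ligand past the threshold. In CD4 cells with RUX+CSA against no treatment, Nfkb1 (0.51, adjusted p = 0.0143) was the single gene of the lists to pass, where 1.77% of all genes did.

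Pairs of genes were set side by side across the 12 libraries of a cell type: neighbours, receptors with ligands, and members with Foxp3. Those libraries share treatment groups and depth, so that Pearson's r of log2 levels is a description. Tnfrsf4 and Tnfrsf18 had r = 0.918 in CD4 and 0.623 in CD8 cells. Sdf4, the gene nearest to Tnfrsf4 at a distance of 85 bases, had r = 0.879 and 0.863 with it in the same order. For receptors and their own ligands, r in CD8 and then CD4 cells was 0.37 and -0.001 for Cd27 and Cd70. It was 0.589 and 0.025 for Tnfrsf4 and Tnfsf4, -0.396 and -0.219 for Tnfrsf9 and Tnfsf9, and -0.386 and -0.804 for Icos and Icosl. Tnfrsf9 and Tnfsf4, which is not its ligand, had r = 0.973 in CD8 and 0.342 in CD4 cells. Tnfrsf9 and Foxp3 had 0.122 in CD8 and 0.841 in CD4 cells. With Foxp3 in CD4 cells, Icos had 0.541, Tnfrsf4 -0.073 and Tnfrsf18 -0.118. The neighbours Cd70 and Tnfsf14 had r = -0.668 in CD8 and 0.151 in CD4 cells. Over all 36 pairs of members the median r was 0.362 in CD8 and 0.296 in CD4 cells, with 25 pairs above 0 in each.

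The genes most like each member over the 12 libraries were found by the same measure among genes above a minimum mean level, given under the processing. For Tnfrsf9 in CD8 cells they included Tnfsf4 (r = 0.973) and Gch1 (0.961), and in CD4 cells they were Ctss (0.951), Adck3 (0.949) and Repin1 (0.937). For Tnfrsf4 in CD8 cells they were Arfgap3 (0.964), Tnfsf13b (0.94) and Cd200r1 (0.94), and in CD4 cells Tnfrsf18, Sdf4 and Bcl2a1b (0.865). Tnfrsf18 in CD4 cells was most like Ppt2 (0.936), Bcl2a1b (0.93) and Tnfrsf4. Tnfsf11 was most like Coch (0.977) in CD8 and Shtn1 (0.928) in CD4 cells, and Tnfsf8 most like Nfat5 (0.924) and Ccdc80 (0.937). Cd27 was most like Perp (0.918) and Parn (0.857), Icos like Enpp2 (0.843) and Angel2 (0.892), Cd70 like Ehd1 (0.961) and BC005624 (0.909), and Tnfsf14 like Tbc1d22b (0.945) and Il1rap (0.849), in CD8 and CD4 cells in that order. No member had the same first gene in both cell types.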

How the data were processed

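The deposited table holds raw counts, whole numbers of read pairs per gene. Per the file headers, featureCounts 2.0.3 counted pairs on the exons of each gene of a UCSC mm10 annotation, in 1 call and with no strand option. STAR and mm10 are named in the submitters' processing notes. edgeR 4.0.16 in R 4.3.3 scaled libraries by TMM (factors 0.929 to 1.05), dropped low genes with filterByExpr and fitted robust quasi-likelihood models of the groups. CD8 libraries (12684 genes), CD4 libraries (13175) and all 24 together for comparisons across cell types (13476) were fitted separately, with biological coefficients of variation of 0.196, 0.279 and 0.24. P-values were two-sided, adjusted by Benjamini-Hochberg over every gene tested, from edgeR unless another tool is named, and compared with 0.05. CPM uses the scaled totals, and TPM the gene lengths in the table. Read pairs carry no molecular identifiers.

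Treatments were compared in pairs and as main effects within each cell type, cell types within each treatment, and RUX+CSA effects between cell types. The latter test for CSA and RUX alone was added after the data were seen. The 9 members, 5 pathway lists and marker lists were chosen with earlier results of these data known. Named genes were the members, list genes past the threshold and, for each member, the 3 genes with the highest Pearson's r. One gene that this rule names is not reported here. Alternatives were DESeq2 1.42.0 and its size factors, limma 3.58.1 with voom, no filter, a covariate of 45 markers of other cells, and left-out libraries. Those markers were of neutrophils, erythroid cells, B cells and macrophages. The tests were checked on simulated counts.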

Additional observations from a re-analysis of the deposited data

How the results depend on the processing

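The cell type differences past the threshold kept their direction under every alternative run. Members called ranged from 7 to 9 in untreated mice and 7 to 8 in RUX mice with 1 library left out, and were 8 throughout in CSA and RUX+CSA mice. DESeq2 called 2 members for RUX+CSA in CD8 cells, 1 for RUX+CSA in CD4 cells and 2 for CSA in CD4 cells. Without CSA 6 and RUX 7 the CD8 counts were 3 for RUX+CSA against no treatment, 1 for CSA against no treatment, 2 for RUX+CSA against RUX, 2 for RUX against CSA and 4 for the CSA main effect, and 1 member passed for how the RUX+CSA effect differed between cell types. With 1 library left out, CD8 treatment counts were 0 throughout, and CD4 counts ran from 0 to 1 for RUX+CSA, 0 to 2 for CSA, 0 to 0 for RUX against CSA and 1 to 2 for the CSA main effect. The cause of these changes was not tested.

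Some log2 values changed sign for RUX+CSA against no treatment, none of them called. With the other-cell covariate, which differs between groups (76.2% of its variance in CD8 lies between them), Tnfrsf18 was 0.18 and Tnfsf8 0.54 in CD8, and Tnfrsf18 0.058 and Tnfsf14 0.27 in CD4 cells. limma voom gave 0.012 for Tnfrsf18 in CD4 cells. With 1 library left out, CD8 values ran from -0.64 to 0.15 for Tnfrsf9, -0.18 to 0.0033 for Tnfrsf18 and -0.22 to 0.46 for Tnfsf14. CD4 values ran from -0.091 to 0.0045 for Icos, -0.11 to 0.29 for Cd70, -0.054 to 0.33 for Tnfrsf4, -0.21 to 0.17 for Tnfrsf18, -0.33 to 0.068 for Tnfsf11 and -0.45 to 0.0024 for Tnfsf14. No paired analysis was possible because no pool number is shared between groups. Counting limits Cd70 in CD8 cells, where a library held 1 to 42 read pairs.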
